A study of Mus musculus with 6 samples.

Results

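Myosins are the motor proteins that pull on actin filaments, and their genes were followed here in mouse Sertoli cells with and without PA1. The members were the protein-coding genes whose symbol is Myo, Myh or Myl followed by a number, or begins with *Mylk*, and 50 of the 28262 genes in the count table met this rule. They comprised 24 unconventional myosins, 3 non-muscle myosin II heavy chains, 1 smooth muscle heavy chain, 9 striated muscle heavy chains, 5 light chains of non-muscle and smooth muscle myosin, 4 striated muscle light chains and 4 myosin light chain kinases. The RNA came from primary Sertoli cells isolated from testes of 20-day-old C57BL/6 mice, with 3 libraries from *Pa1 F/F* mice, in which both *Pa1* alleles are floxed, and 3 from *Amh-pa1-/-* mice. In the latter the floxed alleles are deleted by Cre under the promoter of *Amh*, a gene active in Sertoli cells, so other cells of the testis are not meant to lose *Pa1*. The cells of both genotypes received no treatment and were washed in culture to take away unattached germ cells. PA1 is a subunit of the MLL3/4 histone methyltransferase complexes, and the comparison asks which transcripts depend on it in these cells. *Pa1* itself was not analysed here, so the genotypes rest on the labels. The number of mice behind each library is not given in the sources used here, so p-values measure only the spread between these libraries, which may in part be technical.

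A class II myosin is built of paired heavy chains, each of which carries an essential and a regulatory light chain, and it assembles into bipolar filaments that contract actin. Phosphorylation of the regulatory light chain by light chain kinases and ROCK kinases switches this contraction on, and myosin phosphatase switches it off. Unconventional myosins do not form such filaments. Most bind calmodulin in place of dedicated light chains and carry membranes, organelles or adhesion proteins along actin, and in Sertoli cells actin bundles at the junctions with spermatids and at the blood-testis barrier are sites where motors of both kinds are known to work.

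Total counts on genes ran from 13203757 to 16231443 per library, at which 3 counts correspond to between 0.185 and 0.230 CPM, counts scaled to the total of a library. Defining Sertoli cell genes were measured in every library, *Sox9*, *Wt1* and *Dhh* among them. These 3 are among 8 of 13 tested Sertoli cell markers that did not pass the adjusted p between genotypes. The other 5, among them *Gata4*, *Inha* and *Clu*, were lower in *Amh-pa1-/-* libraries, and 2 more listed markers had too few counts to test. The libraries of a genotype were not equally alike. Among the *Pa1 F/F* libraries the biological coefficient of variation was 3.59% between replicates 1 and 3, and 18.5% and 18.4% between these and replicate 2. Among the *Amh-pa1-/-* libraries it was 2.41% between replicates 1 and 2, and 22.2% and 22.01% between these and replicate 3. *Amh-pa1-/-* replicate 3 therefore stands apart, and results that rest on it are given with and without it. Its value lay between those of the other 2 *Amh-pa1-/-* libraries in 3 of the 33 members tested, and it was the closer to the *Pa1 F/F* mean in 17. The close pairs still differed beyond counting noise and were kept as separate samples, and where a myosin gene loses its call of differential expression when each pair is summed into 1 library, this is said beside the gene. At the adjusted p alone, 2 members were lower and 7 higher with the pairs summed, in place of 11 and 13.

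Of the 50 members, 33 had enough counts to be tested and 10 were differentially expressed, that is, at an adjusted p under 0.05 in edgeR's quasi-likelihood test and a log2 fold change of at least 1 in size. Of these, 5 were lower in *Amh-pa1-/-* cells (*Myo7a*, *Myo1a*, *Myo1f*, *Myo15b* and *Mylk2*) and 5 were higher (*Myl9*, *Myl6*, *Mylk*, *Mylk3* and *Myh1*). That is 30.3% of the tested members, where 12.0% of all 14919 tested genes were differentially expressed, 6.56% lower and 5.44% higher. At the adjusted p alone 24 members passed, 11 lower and 13 higher, or 72.7% beside 35.3% of all tested genes (17.1% lower and 18.2% higher). The classes went different ways. Among the 19 tested unconventional myosins 9 fell and 4 rose at the adjusted p, with a median log2 fold change of -0.43, whereas the 3 non-muscle heavy chains rose (median 0.81) and 3 of 5 non-muscle and smooth muscle light chains rose while 1 fell (median 0.95). Of the tested members, *Myo1a*, *Myo1f* and *Mylk2* had enough counts for the test in the *Pa1 F/F* libraries only and *Myh1* in the *Amh-pa1-/-* libraries only, so that for these 4 entering the test and differing are not independent. *Myo3b* passed by a mixture of libraries. In a count added after the values were seen, of the 28 members with enough counts in both genotypes 2 were differentially expressed lower and 4 higher (21.4%, beside 9.54% of the 13286 such genes), and 20 passed the adjusted p (71.4%, beside 35.6%). The 16 unconventional myosins among these 28 had 7 lower and 4 higher at the adjusted p, with a median log2 fold change of -0.30. Over all 33 tested members the median was 0.08, and over all tested genes 0.00. Libraries of the 2 genotypes did not overlap in 29 of the 33 members, 14 lower and 15 higher, beside 52.4% of all tested genes (26.1% lower and 26.3% higher). In whole-cell RNA, fewer transcripts per cell and fewer cells that carry a transcript cannot be told apart.

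**Figure D1:**
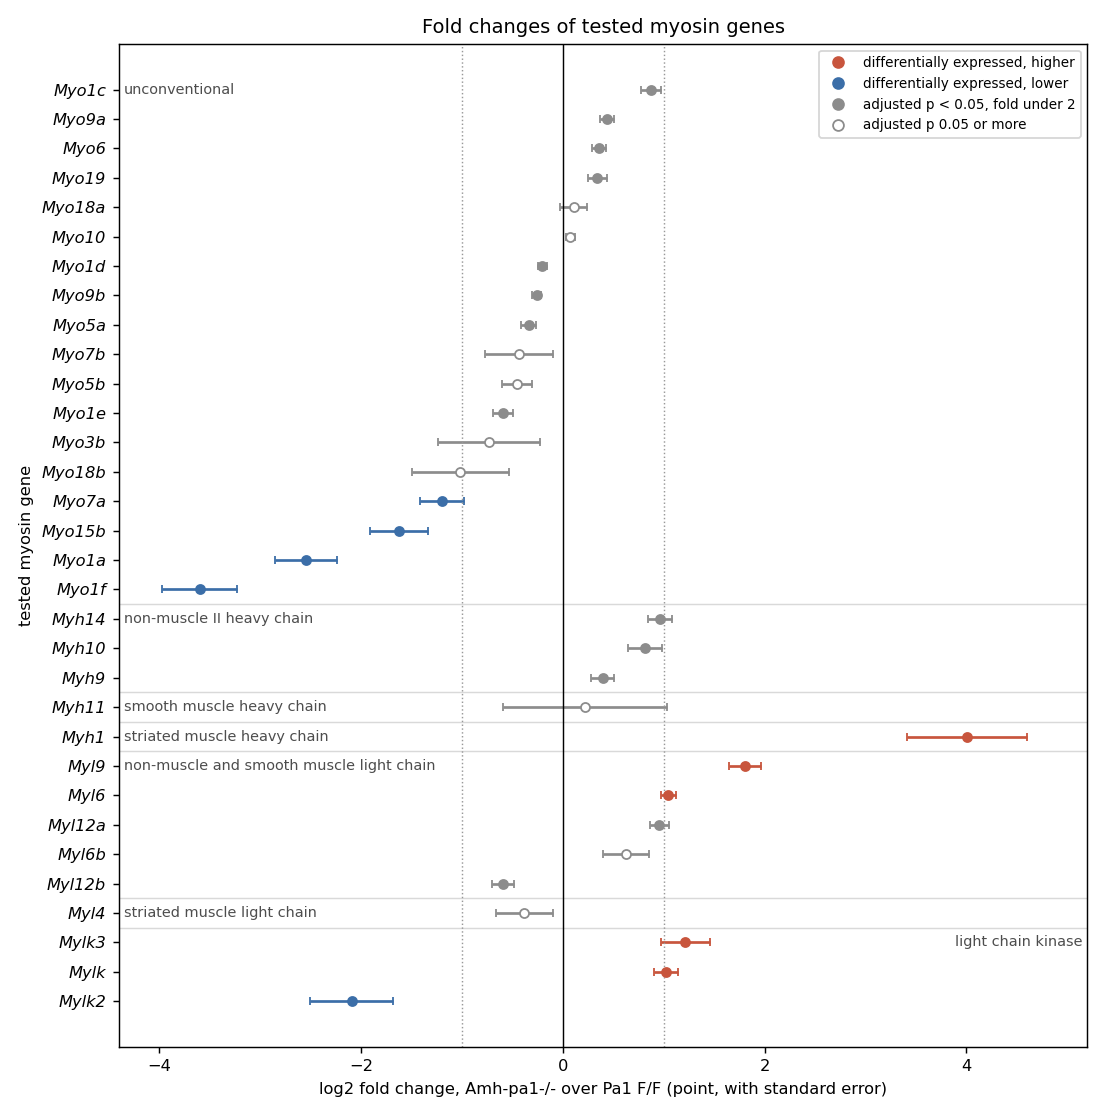
Log2 fold change of *Amh-pa1-/-* over *Pa1 F/F* Sertoli cells for the tested myosin genes (points) with its standard error (bars), grouped by class, with dotted lines at a log2 fold change of 1 in either direction. The 4 differentially expressed unconventional myosins lie to the left, the light chains *Myl9* and *Myl6* and the kinases *Mylk* and *Mylk3* lie to the right, and the error bar of *Myh11* crosses 0. *Myo1a* and *Myo1f* entered the test through the *Pa1 F/F* libraries alone.

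*Myo7a* encodes myosin VIIa, a motor of sensory hair cell stereocilia and pigment epithelium that is also found in Sertoli cells, where it is associated with the actin-rich junctions that hold and move spermatids. The gene (ENSMUSG00000030761) lies at chr7:98051060-98119524 on the minus strand of GRCm38, and no other annotated gene overlaps it. Values per library are normalised counts in the order of replicates 1, 2 and 3. For *Myo7a* the *Pa1 F/F* libraries held 15529, 15732 and 16273 and the *Amh-pa1-/-* libraries 7630.4, 8602 and 4553. All 3 knockout libraries were below all 3 controls, the controls lay close together, and knockout replicate 3 was the lowest. The mean fell from 15845 ± 385 to 6929 ± 2114 (SD, n = 3 for this and the following values with ±), 2.29-fold lower, with a log2 fold change of -1.19 ± 0.22 (SE) and an adjusted p of 0.00675 in edgeR's quasi-likelihood test. Without knockout replicate 3 the log2 fold change was -0.96, just short of the fold threshold, and with the close pairs summed it was -1.30 with an adjusted p of 0.0653, so the call was lost under both while the direction held. On the scale of normalised counts per kilobase of the canonical transcript, *Myo7a* was the most abundant unconventional myosin in *Pa1 F/F* cells at 1844 ± 44.8, where *Myo1c* came next at 1054 ± 70.1. In *Amh-pa1-/-* cells *Myo1c* stood at 1933 ± 199 and *Myo7a* at 806 ± 246, and the order of these motors was reversed with no overlap between their libraries in either genotype.

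*Myo1a*, the motor that links actin cores to the membrane of intestinal microvilli, was measured at 74.3, 76.5 and 80.8 normalised counts in the control libraries and at 14.6, 18.02 and 7.01 in the knockout libraries. Every knockout library was far below every control. The mean was 5.83-fold lower, with a log2 fold change of -2.54 ± 0.31 and an adjusted p of 0.00154 in edgeR's quasi-likelihood test, and this call held without any single library and with the close pairs summed. It had enough counts for the test in the control libraries only. *Myo15b*, related to the hair cell myosin gene *Myo15*, had 48.9, 45.5 and 41.95 counts in *Pa1 F/F* and 11.7, 11.3 and 21.04 in *Amh-pa1-/-* libraries. Knockout replicate 3 was the highest of its group and still under the lowest control. The log2 fold change was -1.62 ± 0.29 (adjusted p = 0.00594), and with the close pairs summed the adjusted p was 0.0815. *Myo15b* overlaps Recql5 by 9 bases, and Recql5 itself had 347 to 452 counts per library.

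*Myo1f* is a class I myosin best known from leukocytes. Its normalised counts were 34.4, 46.5 and 35.7 in *Pa1 F/F* and 1.95, 2.25 and 5.01 in *Amh-pa1-/-* libraries. The groups were far apart, and the knockout values were near the level of single reads. It entered the test through the controls alone, and the fitted log2 fold change of -3.60 ± 0.38 (adjusted p = 0.000859) depends on the prior count at so few knockout reads. The other leukocyte class I myosin, *Myo1g*, had too few reads to be tested, with 8, 10 and 13 raw counts in control and 1, 0 and 3 in knockout libraries. Macrophage genes fell beside them: 8 of 10 tested macrophage markers were differentially expressed, all lower, beside 6.56% of all tested genes, among them *Ptprc*, the common leukocyte antigen CD45, from 26.8 ± 4.98 to 3.80 ± 1.56 normalised counts and *Csf1r*, the receptor for macrophage colony-stimulating factor, from 62.2 ± 20.9 to 10.9 ± 2.01. The summed level of the 12 macrophage markers in the table was 131 to 143 CPM in control and 77.7 to 94.7 CPM in knockout libraries, with none of the 12 at 0 in all libraries, and most of the sum in the knockout came from *Mrc1* (984 ± 38.8 in control and 1109 ± 155 in knockout libraries, adjusted p = 0.254). Of the macrophage markers called lower, *Ptprc*, *Csf1r* and others entered the test through the controls alone, so for them entering the test and being lower are not independent. The part of macrophage RNA in the *Myo1f* result was not tested.

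Among the tested unconventional myosins *Myo1c* rose the most. This class I motor carries glucose transporter vesicles to the plasma membrane and sets membrane tension. Normalised counts were 5615, 5297 and 6046 in *Pa1 F/F* and 11016, 10947 and 9135 in *Amh-pa1-/-* libraries, without overlap. The mean was 1.83-fold higher (log2 fold change 0.87 ± 0.10, adjusted p = 0.000994). Smaller rises passed the adjusted p for *Myo9a*, a motor with a GTPase-activating domain for RhoA (939 ± 54.9 to 1272 ± 57.3 normalised counts, log2 fold change 0.44), for *Myo6*, which moves toward the pointed end of actin and serves endocytosis (1447 ± 81.3 to 1856 ± 119, 0.36), and for *Myo19*, which rides on mitochondria (279.8 ± 9.72 to 355 ± 29.8, 0.34). The call of *Myo19* was weak, with an adjusted p of up to 0.0994 when 1 library was left out. With the close pairs summed *Myo9a* (adjusted p = 0.0546), *Myo6* (adjusted p = 0.0894) and *Myo19* did not pass.

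Other unconventional myosins fell by less than the fold threshold. *Myo1e*, which acts in endocytosis and in the junctions of kidney podocytes, went from 1205 ± 116 to 801 ± 72.2 normalised counts, a log2 fold change of -0.59 (adjusted p = 0.00491), with no overlap between genotypes. *Myo5a*, the motor of melanosomes and secretory vesicles, had a log2 fold change of -0.34, *Myo9b*, the relative of *Myo9a* with the same domain, of -0.26, and *Myo1d*, a determinant of left-right asymmetry, of -0.20, with adjusted p-values between 0.00663 and 0.0165. Leaving out 1 library raised the adjusted p to as much as 0.0734 for *Myo1d* and 0.0625 for *Myo5a*. With the close pairs summed *Myo1e* (adjusted p = 0.0740), *Myo9b* (adjusted p = 0.118), *Myo5a* and *Myo1d* did not pass. Class I myosins thus fell (*Myo1a*, *Myo1d*, *Myo1e* and *Myo1f*) and rose (*Myo1c*) within 1 family, and so did the class IX pair.

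Another 6 tested unconventional myosins did not pass the adjusted p. *Myo10*, the motor of filopodia tips, was measured at 3728 ± 11.1 and 3929 ± 22.2 normalised counts (log2 fold change 0.08, adjusted p = 0.232). *Myo5b*, which works with recycling endosomes, had 560.0, 582 and 589 in control and 363, 376 and 528 in knockout libraries (-0.45, adjusted p = 0.0547), and passed without knockout replicate 3 (-0.64, adjusted p = 0.000646). *Myo7b*, the brush border relative of *Myo7a*, had 39.9, 38.7 and 38.8 and 38.1, 33.8 and 15.03 (-0.43, adjusted p = 0.355), and a log2 fold change of -0.12 without that library. The remaining 3 moved with it too. *Myo18b*, known from striated muscle, had 50.7, 58.1 and 51.4 in *Pa1 F/F* but 11.7, 18.02 and 49.1 in *Amh-pa1-/-* libraries, with knockout replicate 3 near the controls. Its log2 fold change was -1.02 (adjusted p = 0.145), and -1.85 without that library (adjusted p = 0.00175). *Myo3b*, a motor with its own kinase domain, had -0.73 with all libraries (adjusted p = 0.298) and -1.46 without replicate 3 (adjusted p = 0.0454). *Myo18a*, a Golgi-associated myosin, had 0.11 (adjusted p = 0.569) and turned to -0.061 without it.

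**Figure D2:**
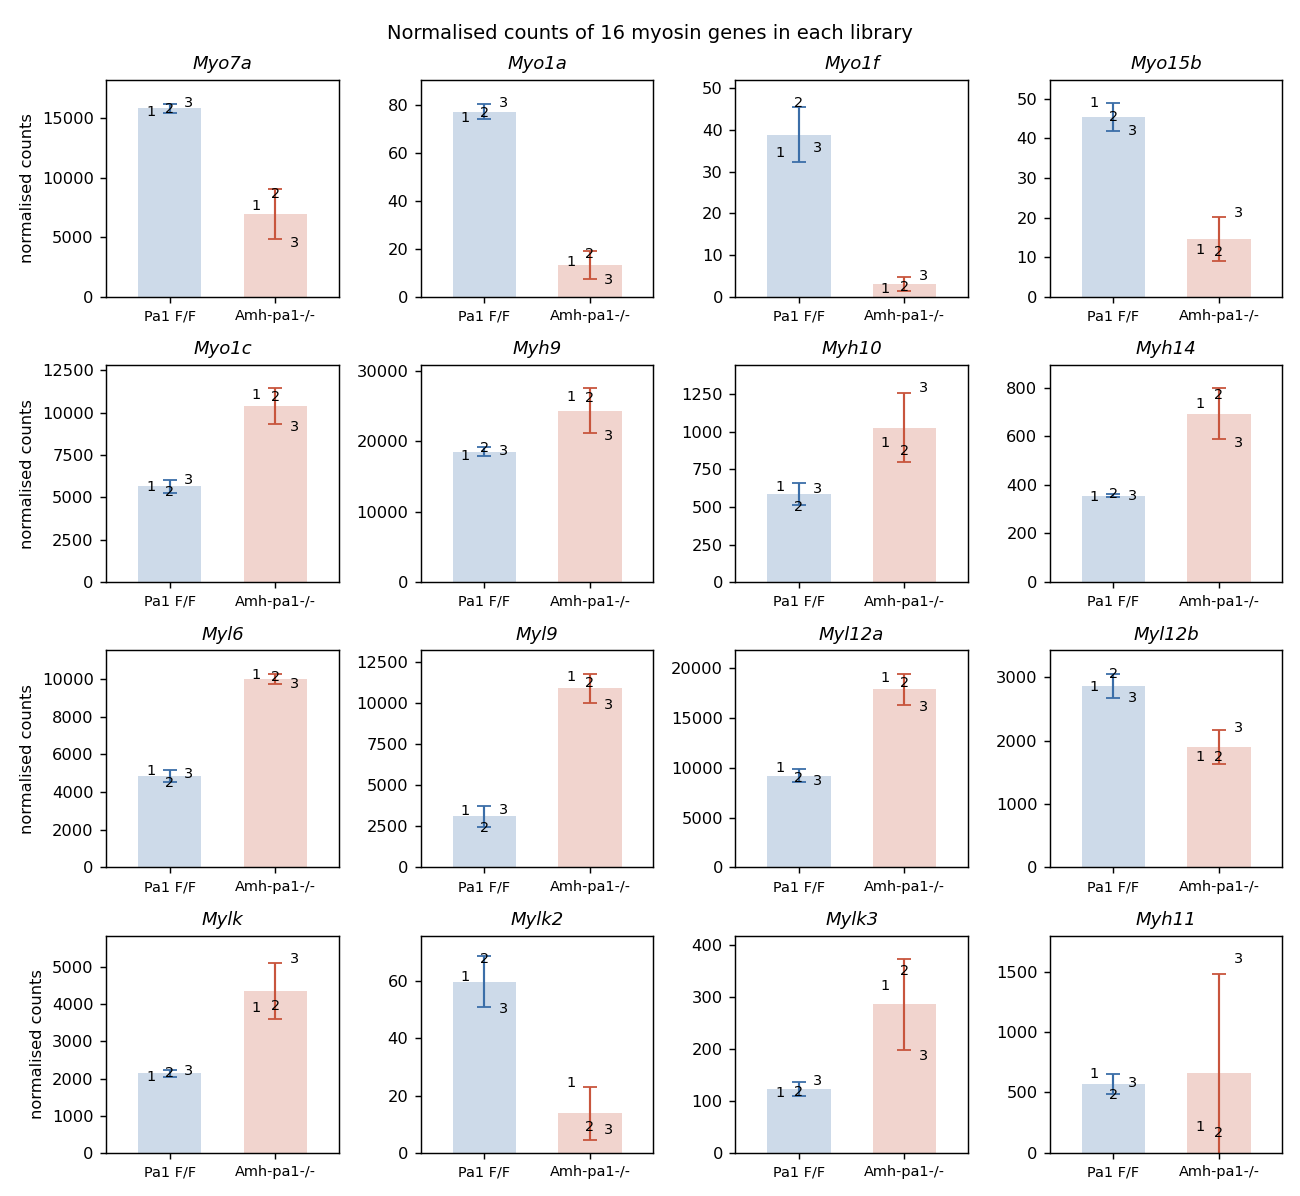
Normalised counts of 16 myosin genes, with bars from 0 for the mean of each genotype, whiskers for the SD over 3 libraries and digits for the replicate number of each library. In *Myo7a*, *Myo1c*, *Myl9*, *Myl6* and *Myl12a* all 3 *Amh-pa1-/-* libraries lie on the same side of all 3 *Pa1 F/F* libraries, and in *Myh11* replicate 3 lies above and replicates 1 and 2 below the controls.

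The heavy chains of non-muscle myosin II were higher in *Amh-pa1-/-* cells by less than the fold threshold, and the 3 genes were not equally secure. *Myh9* encodes heavy chain IIA, the main contractile heavy chain of most non-muscle cells, and lies at chr15:77760587-77842175 (GRCm38). Its normalised counts were 17929, 19095 and 18558 in *Pa1 F/F* and 26257, 26067 and 20707 in *Amh-pa1-/-* libraries. The lowest knockout library, replicate 3, stood just above the highest control. The mean was 1.31-fold higher (log2 fold change 0.39 ± 0.11, adjusted p = 0.0312), but the adjusted p was 0.0501 to 0.103 when any 1 library other than knockout replicate 3 was left out, 0.0794 with the replicate block and 0.238 with the close pairs summed. Without knockout replicate 3 it was 0.000395. *Myh10*, heavy chain IIB, had 635, 502 and 622 in control and 925, 872 and 1291 in knockout libraries, with replicate 3 the highest (1.76-fold, 0.81 ± 0.17, adjusted p = 0.011, and 0.0681 with the close pairs summed). For *Myh14*, heavy chain IIC, the values were 352, 361 and 353 against 734, 769 and 573. The controls were tight and the knockout libraries all higher, 1.95-fold on average (0.96 ± 0.12, adjusted p = 0.00165), and without knockout replicate 3 the log2 fold change was 1.08, past the threshold.

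The make-up of the heavy chain pool was compared within each library, which does not depend on the scaling between libraries. Reads per kilobase of canonical transcript from *Myh9* made up 94.7%, 95.6% and 94.9% of the sum over *Myh9*, *Myh10* and *Myh14* in *Pa1 F/F* libraries and 93.9%, 93.9% and 91.7% in *Amh-pa1-/-* libraries. The groups did not overlap, the difference was -1.91 percentage points (-1.18 without knockout replicate 3), and the exact two-sided permutation test over libraries gave p = 0.1, the smallest that 3 against 3 allows (0.15 after adjustment over the 3 shares). The *Myh14* share was 2.08%, 2.03% and 2.03% in control and 2.95%, 3.11% and 2.85% in knockout libraries, a difference of 0.92 percentage points (exact permutation p = 0.1, adjusted 0.15). Shares of *Myh10* overlapped, at 2.39% to 3.20% and 2.99% to 5.45% (exact permutation p = 0.5). *Myh9* supplied most of the pool in every library, and at this sample size none of the shares could reach a p under 0.05.

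**Figure D3:**
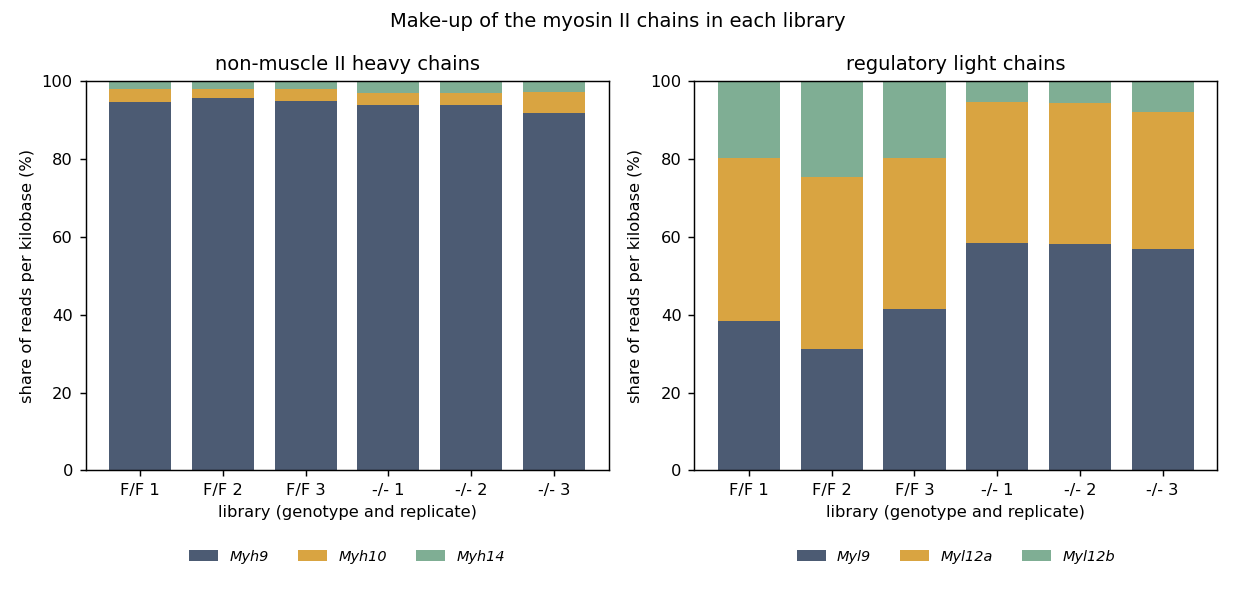
Stacked shares of reads per kilobase of canonical transcript in each library, from 0 to 100%, for the non-muscle II heavy chains (left) and the regulatory light chains (right). *Myh9* takes 91.7% to 95.6% of the heavy chain reads in all 6 libraries, whereas the *Myl12b* share of the light chain reads is 19.7% to 24.7% in *Pa1 F/F* and 5.44% to 7.93% in *Amh-pa1-/-* libraries.

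*Myh11*, the smooth muscle heavy chain (chr16:14194527-14291408), is a marker of contractile cells around the tubules and in vessels. Normalised counts were 649, 481 and 580.0 in *Pa1 F/F* and 216, 164 and 1605 in *Amh-pa1-/-* libraries. Knockout replicates 1 and 2 were under all controls and replicate 3 was above all of them, at 8.44 times the mean of the other 2. With all libraries the log2 fold change was 0.22 ± 0.81 (adjusted p = 0.856), and without replicate 3 it was -1.58 (adjusted p = 0.000484), so no direction is given for it. Some other smooth muscle genes were also highest in knockout replicate 3, while *Smtn*, at 1165, 1246 and 1085 in the knockout and 539, 416 and 486 in the control libraries, was lowest there among the knockouts. *Cnn1*, calponin, was at 34.2, 24.8 and 421 in the knockout libraries beside 53.5, 27.1 and 65.03 in the controls, and *Des*, desmin, at 43.9, 46.2 and 485 beside 139, 92.95 and 113. *Lmod1*, leiomodin, was at 190.3, 247 and 728 beside 143, 63.9 and 155, above the controls in replicates 1 and 2 as well. A higher content of smooth muscle RNA in that library was not tested as a source.

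Light chains of non-muscle and smooth muscle myosin included the abundant member that rose the most, *Myl9*. *Myl9* encodes a regulatory light chain of smooth muscle and non-muscle myosin and lies at chr2:156775420-156781658 on the plus strand (ENSMUSG00000067818). Its normalised counts were 3452, 2389.6 and 3498 in *Pa1 F/F* and 11585, 11209 and 9870.5 in *Amh-pa1-/-* libraries. The genotypes were far apart and replicate 3 was the lowest of the knockouts. The mean rose from 3113 ± 627 to 10888 ± 901, 3.50-fold, with a log2 fold change of 1.81 ± 0.16 and an adjusted p of 0.000476 in edgeR's quasi-likelihood test, and the call held without any single library and with the close pairs summed.

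*Myl6* encodes the common essential light chain (chr10:128490860-128494145, minus strand) and was the most abundant member per kilobase of canonical transcript in both genotypes. Counts were 5097, 4466 and 4986 in control and 10223, 10125 and 9721 in knockout libraries. All knockout libraries lay within a narrow range above the controls, 2.07-fold on average (log2 fold change 1.05 ± 0.07, adjusted p = 0.000196), and without control replicate 2 the log2 fold change was 0.99, under the fold threshold. Its neighbour *Myl6b*, a second essential light chain gene, had 80.6, 82.3 and 72.4 and 112, 90.1 and 160.3 counts, higher in each knockout library but with an adjusted p of 0.0734.

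*Myl12a* and *Myl12b* are adjacent genes on chromosome 17 for nearly identical regulatory light chains, and reads that fit both copies may have been split or dropped, so their values are uncertain to that extent. *Myl12a* (chr17:70993656-71002878) had 9929, 8975 and 8697 normalised counts in *Pa1 F/F* and 19005, 18430.4 and 16047 in *Amh-pa1-/-* libraries. It was 1.94-fold higher (log2 fold change 0.95 ± 0.09, adjusted p = 0.000708), and past the fold threshold without control replicate 1 (1.02) or without knockout replicate 3 (1.03). *Myl12b* (chr17:70973920-70990787) went the other way, with 2841, 3059 and 2677 in control and 1737, 1751 and 2206 in knockout libraries, 1.51-fold lower (-0.59 ± 0.11, adjusted p = 0.00631, and 0.0865 with the close pairs summed). No library of the 2 genotypes overlapped in either gene.

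The pool of regulatory light chain reads accordingly had another make-up in the 2 genotypes. As shares of reads per kilobase over *Myl9*, *Myl12a* and *Myl12b*, *Myl9* held 38.4%, 31.1% and 41.4% in *Pa1 F/F* libraries and 58.3%, 58.1% and 57.0% in *Amh-pa1-/-* libraries. *Myl12b* held 19.7%, 24.7% and 19.7% in control and 5.44%, 5.65% and 7.93% in knockout libraries, and *Myl12a* 41.7% ± 2.63 and 35.8% ± 0.655. On this scale *Myl9* had the largest share in every knockout library. These shares were added after the values were known and are given without a test. They depend on the transcript length used: counted without length the *Myl9* share went from 20.5% to 35.5% and *Myl12a* led in the knockout at 58.2%, and with all annotated exons merged from 50.4% to 69.2%.

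Myosin light chain kinases activate these regulatory chains. *Mylk*, the calmodulin-dependent kinase of smooth muscle and non-muscle cells (chr16:34745210-35002420), had normalised counts of 2039, 2162 and 2216 in *Pa1 F/F* and 3896, 3953 and 5221 in *Amh-pa1-/-* libraries. Knockout replicate 3 was the highest and the genotypes did not overlap. The mean was 2.04-fold higher (log2 fold change 1.03 ± 0.12, adjusted p = 0.0013), and the log2 fold change was 0.88 without knockout replicate 3 and 0.996 without control replicate 1, both under the fold threshold with adjusted p-values that still passed. *Mylk3*, the cardiac kinase, had 114, 116 and 138 and 320.2, 350.4 and 186 counts, with replicate 3 the lowest knockout (2.32-fold higher, 1.22 ± 0.24, adjusted p = 0.00934, and 0.0929 with the close pairs summed). *Mylk2*, the skeletal muscle kinase, went down, from 61.6, 67.8 and 50.3 to 24.4, 9.01 and 8.02. It was 4.27-fold lower (-2.09 ± 0.42, adjusted p = 0.00914, and 0.0504 with the close pairs summed).

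The stretches upstream of the transcription start are shown for 5 abundant members that rose at the adjusted p and hold, in that window, the letters of an AP-1 site (TGANTCA) or a CArG box, the element bound by serum response factor, and for *Myo7a* as the abundant member that fell. RefSeq start sites of GRCm38.p6 were matched to 43 of the 50 members, with 55 windows among them. Each sequence runs 5′ to 3′ on the strand of its gene and ends at the base before the start site, and capitals mark the motif. Against the gene bounds of the count table, the windows shown for *Myl6*, *Mylk*, *Myl12a* and *Myo1c* lie inside the gene and those for *Myl9* and *Myo7a* reach across its 5′ end. *Myl9* (chr2:156775214-156775463, plus strand) holds a CArG box that begins 161 bases before the start.
Myl9: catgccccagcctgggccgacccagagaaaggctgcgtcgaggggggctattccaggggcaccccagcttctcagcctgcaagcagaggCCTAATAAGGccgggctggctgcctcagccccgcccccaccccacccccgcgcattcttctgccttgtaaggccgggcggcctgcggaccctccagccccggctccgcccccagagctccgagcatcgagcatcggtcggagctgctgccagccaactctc
In *Myl6*, 1 of the 2 start sites (chr10:128493010-128493259, minus strand) has a CArG box 50 bases before the start, and the window of its other start site holds neither motif.
Myl6: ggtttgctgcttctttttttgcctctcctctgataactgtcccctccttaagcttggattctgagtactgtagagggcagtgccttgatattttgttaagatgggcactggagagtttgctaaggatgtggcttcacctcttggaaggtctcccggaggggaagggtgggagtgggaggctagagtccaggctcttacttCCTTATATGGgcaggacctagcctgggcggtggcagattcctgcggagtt
In *Mylk* (chr16:34784700-34784949, plus strand) an AP-1 motif begins 64 bases before the start.
Mylk: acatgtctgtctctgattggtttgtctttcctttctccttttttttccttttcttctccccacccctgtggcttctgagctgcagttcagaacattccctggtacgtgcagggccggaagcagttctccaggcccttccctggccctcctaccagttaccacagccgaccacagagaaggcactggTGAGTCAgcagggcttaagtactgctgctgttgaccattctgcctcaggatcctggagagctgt
In *Myl12a* (chr17:71002534-71002783, minus strand) an AP-1 motif begins 137 bases before the start.
Myl12a: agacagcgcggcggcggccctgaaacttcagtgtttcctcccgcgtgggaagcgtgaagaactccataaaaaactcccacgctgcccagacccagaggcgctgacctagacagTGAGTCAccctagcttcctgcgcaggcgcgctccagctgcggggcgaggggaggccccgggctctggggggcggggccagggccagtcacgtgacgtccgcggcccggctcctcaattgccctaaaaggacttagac
In *Myo1c* (chr11:75655765-75656014, plus strand) the window of 1 of its start sites holds an AP-1 motif 83 bases before the start.
Myo1c: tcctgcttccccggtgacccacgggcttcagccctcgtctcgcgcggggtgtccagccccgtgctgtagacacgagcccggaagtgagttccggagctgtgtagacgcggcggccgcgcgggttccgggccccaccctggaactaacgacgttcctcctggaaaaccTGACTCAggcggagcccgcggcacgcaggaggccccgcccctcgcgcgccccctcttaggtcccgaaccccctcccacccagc
In *Myo7a* (chr7:98119494-98119743, minus strand) the window at the 5′ end of the gene holds neither motif, and the same is true of its internal start site.
Myo7a: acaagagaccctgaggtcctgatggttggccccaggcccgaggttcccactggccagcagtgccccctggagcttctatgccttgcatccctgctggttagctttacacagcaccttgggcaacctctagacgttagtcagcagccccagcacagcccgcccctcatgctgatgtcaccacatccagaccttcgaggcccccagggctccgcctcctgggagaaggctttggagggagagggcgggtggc
Windows were searched from 250 bases before to 50 bases after the start, and both motifs read the same on either strand. The AP-1 letters stood in 5 of the 55 member windows (those of *Myl12a*, *Mylk*, *Myo1c*, *Myl6b* and *Myh1*), where 7.81% of 32851 windows of all genes held them. The CArG letters stood in 5 member windows too (*Myl9*, *Myl6*, *Myo1e*, *Myh4* and *Myh13*), where 1.63% of all windows held them. These matches describe letters and not binding. Members with a motif moved both ways, as *Myo1e* fell.

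Of the 9 striated muscle heavy chains, *Myh1* passed the filter on low counts. *Myh1*, the fast IIx chain of skeletal muscle, lies in the cluster of skeletal heavy chain genes on chromosome 11 (chr11:67200052-67224575). It had 1, 0 and 2 raw counts in *Pa1 F/F* and 16, 14 and 21 in *Amh-pa1-/-* libraries, present at a low level in each knockout library and near nothing in the controls. Summed over libraries, 3 counts stood against 51, a ratio of 18.05 with a 95% exact interval of 5.84 to 90.4 that covers counting error only. It entered the test through the knockout libraries alone, so that its call among the 5 higher members is no independent evidence. The level is low on any scale, at 0.133 ± 0.139 normalised counts per kilobase in control and 2.32 ± 0.409 in knockout libraries. The striated muscle markers in the table (10 genes, 3 of them tested, none at 0 in all libraries) were at a summed 11.1 to 16.4 CPM in control and 15.9 to 18.7 CPM in knockout libraries, and the part of striated muscle RNA in the *Myh1* reads was not tested. Members of the heavy chain cluster are close in sequence, and reads shared between copies are uncertain here as well. *Myl4*, the atrial light chain, was the tested striated light chain, with 21.7, 26.1 and 31.5 and 18.5, 15.8 and 26.1 normalised counts (log2 fold change -0.38, adjusted p = 0.329).

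The other 17 members were too low to test, with a highest count per library between 2 and 17. They were the unconventional myosins *Myo15*, *Myo16*, *Myo1g*, *Myo1h* and *Myo5c*, the striated heavy chains *Myh3*, *Myh4*, *Myh6*, *Myh7*, *Myh7b*, *Myh8*, *Myh13* and *Myh15*, the striated light chains *Myl1*, *Myl2* and *Myl10*, and the kinase *Mylk4*. Among them *Myo5c*, a motor of secretory epithelia, had 39 raw counts over the controls and 14 over the knockouts, *Myh7b* 29 and 8, and *Myo16*, a brain myosin, 1 and 14. These sums are given without a test. Reads of *Myo1h* and *Myh7b* may include some from the overlapping genes Kctd10 and Trpc4ap, which had 1291 to 2791 counts per library.

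The order of abundance per kilobase of canonical transcript was led in *Pa1 F/F* cells by *Myl6* (6968 ± 484 normalised counts per kilobase), followed by *Myl12a* (2516 ± 177), *Myh9* (2491 ± 78.4), *Myl9* (2248 ± 453) and *Myo7a*. Libraries of *Myl12a* and *Myh9*, of *Myh9* and *Myl9*, and of *Myl9* and *Myo7a* overlapped, so neighbours among these 4 do not differ beyond their spread. In *Amh-pa1-/-* cells the order was *Myl6* (14401 ± 382), *Myl9* (7861 ± 651), *Myl12a* (4875 ± 429), *Myh9* (3272 ± 424) and *Myo1c*, none of which overlapped its neighbour, and *Myo7a* came 7th after *Myl12b*, with which it overlapped. Levels between genes depend on which transcript length is taken, while the fold change of a gene does not. With all annotated exons merged, *Myo7a* at 1573 and *Myl6* at 1493 normalised counts per kilobase were highest in *Pa1 F/F* cells with overlapping libraries, and *Myl9* at 4748 in *Amh-pa1-/-* cells.

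Genes that act on or with myosins were taken from 7 lists of known partners, made by function. Earlier results of these data were known then, so shares over these genes are description only. Among 81 such genes, 66 were tested, and 34 passed the adjusted p, 14 lower and 20 higher, or 51.5% beside 35.3% of all tested genes. Without knockout replicate 2 the count lower was 9, and with the close pairs summed it was 5, with 12 higher. The median log2 fold change was 0.03. Differentially expressed were 4 lower (*Ppp1r14a*, *Dapk1*, *Shroom3* and *Cdh23*) and 7 higher (*Ppp1r12b*, *Cit*, *Smyd1*, *Anln*, *Tpm1*, *Cald1* and *Tpm2*), or 16.7% beside 12.0% of all tested genes. *Ppp1r14a* had enough counts for the test in the controls only and *Smyd1* in the knockouts only. The calls of *Shroom3* and *Cald1* were lost with the close pairs summed, and those of *Shroom3* and *Tpm2* without knockout replicate 3, or without control replicate 1 (*Shroom3*) or 2 (*Tpm2*).

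**Figure D4:**
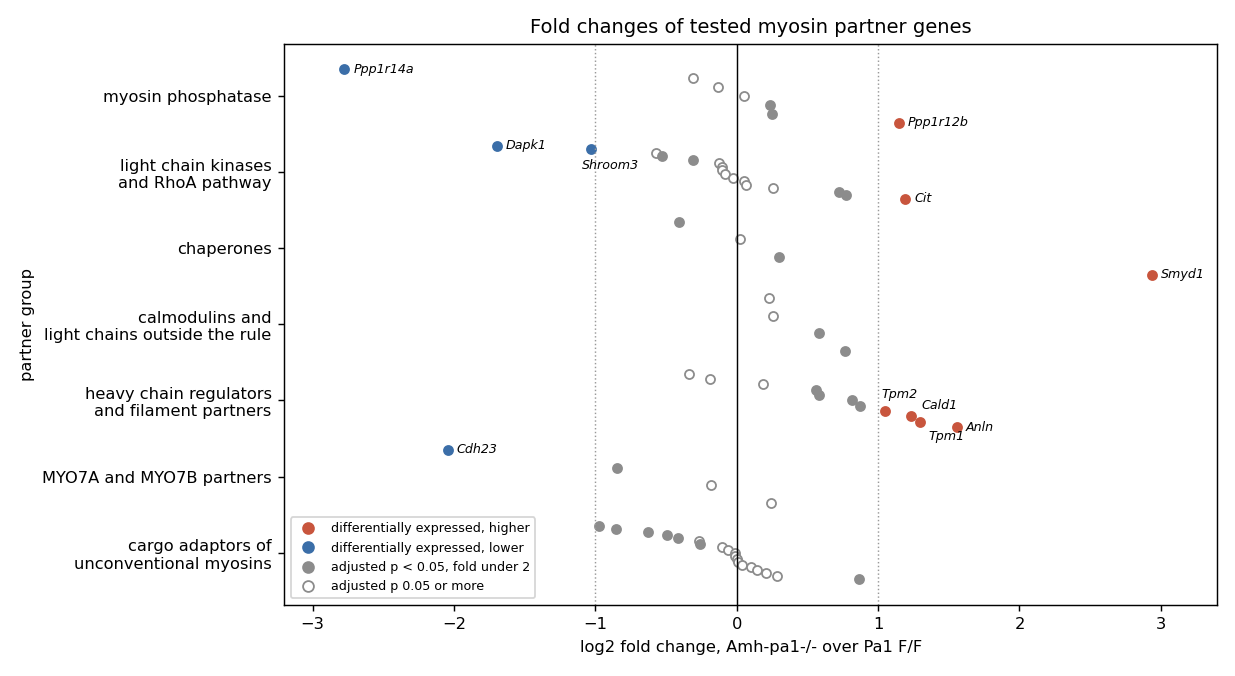
Log2 fold change of *Amh-pa1-/-* over *Pa1 F/F* Sertoli cells for the tested myosin partner genes, 1 point a gene, in 7 groups by role. Genes of actin filament and heavy chain regulation lie mostly to the right with *Anln* at 1.56, and *Ppp1r14a* (-2.77) and *Cdh23* (-2.04) lie farthest to the left.

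Of 7 tested genes of the phosphatase that removes phosphate from regulatory light chains, 3 rose and 1 fell at the adjusted p, or 57.1% beside 35.3% of all tested genes. *Ppp1r14a* encodes CPI-17, an inhibitor of that phosphatase, and had normalised counts of 34.4, 48.4 and 38.8 in *Pa1 F/F* and 5.86, 3.38 and 8.02 in *Amh-pa1-/-* libraries. All knockout libraries were far below the lowest control (log2 fold change -2.77 ± 0.34, adjusted p = 0.00148). *Ppp1r14a* entered the test through the controls alone, so entering the test and being lower are not independent, and it is the gene counted above as fallen. *Ppp1r12b*, a targeting subunit of the phosphatase, rose from 2025 ± 327 to 4481 ± 241 (1.15, adjusted p = 0.000763), while the subunits *Ppp1r12a* and *Ppp1cb* rose by 0.25 and 0.23 on the log2 scale, with adjusted p-values of up to 0.103 and 0.0725 when 1 library was left out.

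Among 16 tested light chain kinases and RhoA pathway genes outside the *Mylk* family, 4 fell and 3 rose at the adjusted p, or 43.8% beside 35.3% of all tested genes. *Dapk1*, a death-associated kinase that phosphorylates light chains, fell from 240.4 ± 39.4 to 74.2 ± 15.8 normalised counts (-1.70, adjusted p = 0.00148), and *Shroom3*, which recruits ROCK kinases to apical junctions, from 1810.2 ± 197 to 886 ± 209.5 (-1.03, adjusted p = 0.00562). *Cit*, the citron kinase of cytokinesis, rose from 271 ± 39.9 to 620.2 ± 23.1 (1.19, adjusted p = 0.000728). *Rock2*, a kinase activated by RhoA, rose from 3586 ± 427 to 6132 ± 780.0 (0.77, adjusted p = 0.00404), and *Cdc42bpa*, the related MRCK alpha, by 0.73 on the log2 scale, whereas *Rock1* had 0.26 (adjusted p = 0.0591) and *Rhoa* 0.05 (adjusted p = 0.622). *Rhob* and *Arhgef2*, a RhoA exchange factor held on microtubules, fell by less than the fold threshold (-0.53 and -0.31), with adjusted p-values of up to 0.0947 and 0.0884 when 1 library was left out.

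Genes that organise myosin filaments on actin rose in 8 of the 11 tested, or 72.7% beside the 18.2% of all tested genes that were higher, and the other 3 did not pass the adjusted p. *Anln*, anillin, which links myosin II to the contractile ring, rose from 953 ± 66.6 to 2805 ± 383 normalised counts (1.56, adjusted p = 0.000207). The tropomyosins, which gate myosin access to actin, were all higher, with log2 fold changes of 1.30 for *Tpm1*, 1.05 for *Tpm2*, 0.82 for *Tpm4* and 0.58 for *Tpm3*. *Cald1*, caldesmon, had 1.23 and the actin-bundling *Lima1* 0.87. The septins *Sept2*, *Sept7* and *Sept9* did not pass (adjusted p from 0.0522 to 0.175). Of the genes for calmodulin, the light chain of most unconventional myosins, *Calm3* rose from 2720.3 ± 173 to 4081 ± 229.9 (0.59, adjusted p = 0.00141), and *Calm2* was at 0.23 (adjusted p = 0.069). The fast skeletal light chain gene *Mylpf*, which the naming rule leaves out, went from 25.5 ± 4.79 to 43.4 ± 7.53 (0.76, adjusted p = 0.0451, and up to 0.143 when 1 library was left out).

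Chaperones that fold the myosin motor domain went both ways. *Smyd1*, a muscle methyltransferase of thick filament assembly, rose from 19.03, 8.71 and 10.5 in control to 74.2, 65.3 and 157 normalised counts in knockout libraries (2.94, adjusted p = 0.00399). It entered the test through the knockout libraries alone, so entering the test and being higher are not independent. The general myosin chaperone *Unc45a* fell, with a log2 fold change of -0.41 (adjusted p = 0.00325). Its muscle form *Unc45b* had at most 1 count per library.

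Myosin VIIa works with cadherin 23 and a set of scaffolds in hair cells. Among 12 listed MYO7A and MYO7B partners, 4 were tested. *Cdh23* had normalised counts of 1330.2, 1287 and 1328 in *Pa1 F/F* and 325, 374 and 259 in *Amh-pa1-/-* libraries, with both groups tight and far apart (4.12-fold lower, log2 fold change -2.04 ± 0.13, adjusted p = 0.000169). The scaffold gene *Whrn*, whirlin, fell from 398 ± 17.5 to 221 ± 13.3 (-0.85, adjusted p = 0.000888). The partners *Pdzd7* and *Vezt*, vezatin, did not pass (-0.18 and 0.24). *Ush1c*, *Pcdh15*, *Tmc1*, *Cdhr2*, *Cdhr5* and *Clrn1* had at most 3 counts in any library. *Ush1g*, too low to test, had 12, 14 and 6 raw counts in control and 2, 2 and 4 in knockout libraries.

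Of 19 tested cargo adaptors of unconventional myosins, 6 fell and 1 rose at the adjusted p, and 12 did not pass it. That is 36.8%, near the 35.3% of all tested genes. *Eps8*, an actin regulator carried by myosins to the tips of protrusions, had 1193 ± 44.98 and 608 ± 107 normalised counts (-0.97, adjusted p = 0.00184), just short of the fold threshold. *Rab27a*, the Rab that joins MYO5A and MYO7A to organelles, fell from 94.7 ± 16.5 to 52.2 ± 10.8 (-0.86, adjusted p = 0.0227, and up to 0.0830 when 1 library was left out), and *Spire1*, an actin nucleator that binds MYO5, from 558 ± 46.5 to 361 ± 19.2 (-0.63). *Espn*, espin, which bundles actin at Sertoli cell junctions, went from 4198 ± 893 to 2985 ± 219 (-0.49, adjusted p = 0.0487, and up to 0.158 when 1 library was left out). The gene that rose was *Fermt2*, kindlin-2, an integrin activator linked to MYO10 (0.86, adjusted p = 0.000377).

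Levels of cell type markers are set beside the contractile genes, since *Myl9*, *Mylk* and *Myh11* are also smooth muscle genes. Of 8 tested peritubular myoid markers 2 rose, *Acta2*, smooth muscle actin, from 2968 ± 378 to 13194 ± 1908 normalised counts and *Smtn*, smoothelin (1.28), and the other 6 did not pass. That is 25% higher, beside 18.2% of all tested genes. The summed level of the 10 myoid markers was 226 to 292 CPM in control and 922 to 1286 CPM in knockout libraries, with none of the 10 at 0 in all libraries. Most of this sum was *Acta2*, and without it the levels were 53.3 to 76.7 CPM and 105 to 240.2 CPM. The markers differed among themselves in knockout replicates 1 and 2. There *Acta2*, *Smtn* and *Lmod1* were above all controls, while *Actg2* (66.4, 51.8 and 730.4 in the knockout libraries, 183, 124 and 164 in the controls), *Des*, *Cnn1* and *Myh11* were below the control means. Of 13 tested Sertoli cell markers 5 were lower and 8 did not pass the adjusted p (38.5% lower, beside 17.1% of all tested genes). The Sertoli cell list summed to 17085 to 17411 CPM in control and 10300.3 to 13175 CPM in knockout libraries. Most of this sum was *Clu*, clusterin, and without it the levels were 3954 to 4211 CPM and 3109 to 3224 CPM. Mesothelial markers, of which 3 of 6 tested rose (50.0%, beside 18.2% of all tested genes) and none fell, summed to 11.9 to 16.5 CPM in control and 33.9 to 40.3 CPM in knockout libraries, with none at 0 in all libraries. Among them *Upk3b*, a uroplakin, was at 6.34, 4.84 and 14.7 normalised counts in control and 230.4, 242 and 339 in knockout libraries (4.98, adjusted p = 0.000249). *Upk3b* and *Krt19*, both counted as risen, entered the test through the knockout libraries alone, so entering the test and being higher are not independent. *Amh*, an early Sertoli cell gene, was at 186, 254 and 179 normalised counts in control and 43.9, 48.4 and 365 in knockout libraries, again with replicate 3 apart. Leydig cell markers summed to 838 to 933 CPM and 177 to 333 CPM, with 3 of 4 tested lower at the adjusted p, beside 17.1% of all tested genes. Spermatogonial markers also had 3 of 4 tested lower, some of which entered through the controls alone. Endothelial markers summed to 116 to 122 CPM in control and 63.9 to 101 CPM in knockout libraries, with 2 of 4 tested lower and 1 higher. No tested spermatocyte or spermatid marker passed the adjusted p. The part of a changed cell make-up in the myosin results was not tested.

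**Figure D5:**
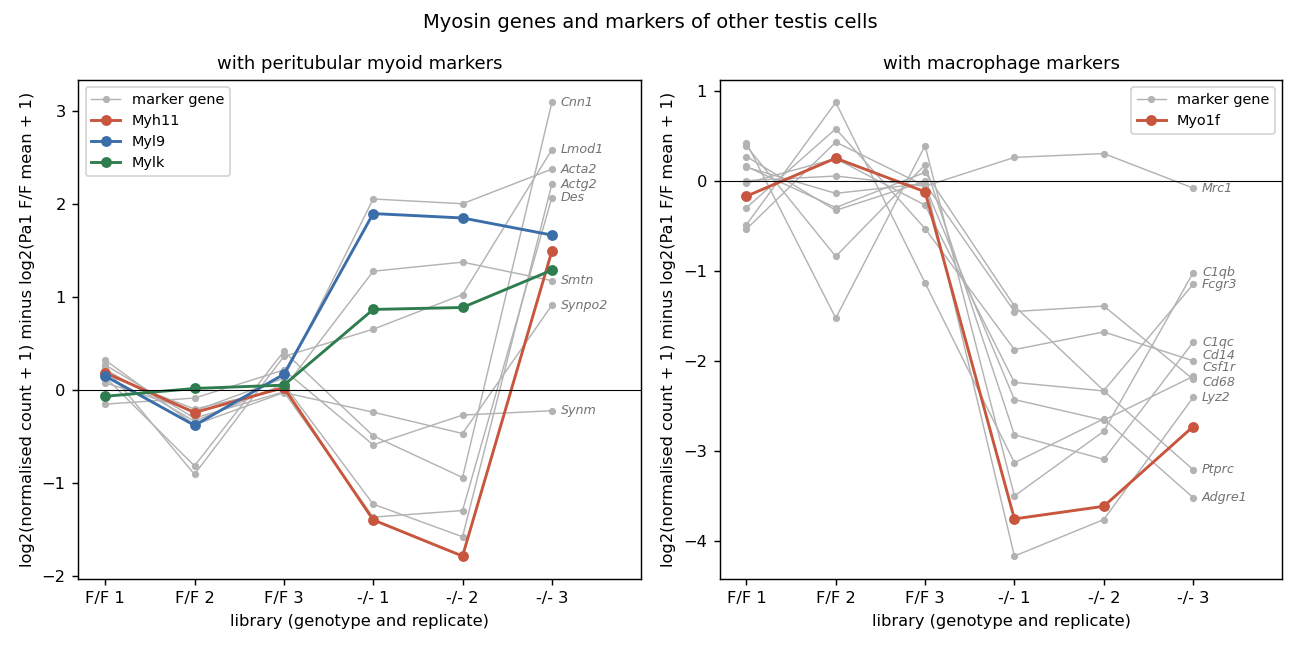
Level of each gene in each library as the log2 of the normalised count plus 1 relative to the *Pa1 F/F* mean, with grey lines for tested markers of peritubular myoid cells (left) and macrophages (right) and coloured lines for myosin genes. *Myh11* is low in *Amh-pa1-/-* replicates 1 and 2 and high in replicate 3, *Myl9* is high in all 3 knockout libraries as *Acta2* is, and *Myo1f* falls along with most macrophage markers.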

How the data were processed

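RNA-seq of 6 libraries (3 *Pa1 F/F*, 3 *Amh-pa1-/-*) was analysed. The authors aligned reads to GRCm38 with HISAT2 2.1.0 and counted them per gene with HTSeq 0.6.0, and the counts were deposited without normalisation. The strand setting of the counting is not given in the sources used here, so antisense partners cannot be told apart. The same table holds the authors' own comparison (mean, fold change, p-values), which was not used, and the study's DEGseq was not run. In R 4.3.3 with edgeR 4.0.16, genes were kept by filterByExpr per group (minimum count 10, minimum total 15), scaled by TMM (factors 0.990 to 1.03) and compared by quasi-likelihood F-tests with Benjamini-Hochberg adjustment over 14919 genes. The thresholds, adjusted p under 0.05 and a log2 fold change of 1, are those of the study. The SE is the log2 fold change divided by the square root of F. Normalised counts are counts scaled to the mean effective library size. Levels per kilobase use canonical transcript lengths of GENCODE vM39, lengths only. On simulated counts, 88% of 200 genes changed by a log2 fold change of 2 were recovered among 14673 tested, and 4.35% of calls were unchanged genes. The simulated libraries were drawn independently, without close pairs or a library apart. These rates therefore check the procedure and do not give the error rate in these data.

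Members are named by class, with values per library for differentially expressed members and for *Myo7a* and the main class II chains. The members and lists were chosen with earlier results of these data known. Partner genes named in the lists but missing from the table used (S100a4, Stk17a, Calcoco2 and Pjvk) and the markers Tnp1, Prm2 and Tie1 were not analysed here. Some single genes are counted in the totals but not reported here. Replicate numbers did not pair the libraries. Alternatives were other size factors, library size only, DESeq2 1.42.0, limma 3.58.1 (voom), other count filters, a replicate block, leaving out each library and summing the close pairs. Promoter windows came from RefSeq (GRCm38.p6), where 7 members had none, among them *Myh11*, *Mylk2*, *Myo7b*, *Myo18b*, *Myo5b* and *Myo1d*. Reads are not independent molecules, so intervals cover counting error only. Figures were made with Python 3.11.15 and matplotlib 3.10.9, and exact tests with scipy 1.17.1.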

Additional observations from a re-analysis of the deposited data

How the results depend on the processing

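With 3 libraries a genotype, of which 1 stands apart in each, small changes and single calls are the least certain. Of 457 values of tested members under the alternatives, 440 kept their direction and their side of the thresholds for differential expression, 8 lost the call, 5 gained it and 4 reversed. The reversed values were those of *Myh11* with limma-voom (-0.53), with the replicate block (-0.57) and without *Amh-pa1-/-* replicate 3 (-1.58), and that of *Myo18a* without the same library (-0.061). Leaving out 1 library at a time, *Myh11* ranged from -1.58 to 0.69 and *Myo18a* from -0.061 to 0.20. The counts of members differentially expressed were 5 lower and 5 higher. Requiring at least 10 counts in every library left 2 lower, since fewer genes were tested. Summing the close pairs left 2 lower (*Myo1a* and *Myo1f*) and 4 higher, with fewer samples. At the adjusted p alone the summed pairs gave 2 lower and 7 higher members in place of 11 and 13, and 5 lower and 12 higher partner genes in place of 14 and 20.

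Leaving out 1 library at a time gave 5 to 7 members differentially expressed lower and 4 to 6 higher, and at the adjusted p 9 to 15 members lower and 11 to 13 higher, with 9 to 17 partner genes lower and 16 to 23 higher. The lowest partner count, 9, came without *Amh-pa1-/-* replicate 2. Without *Amh-pa1-/-* replicate 3 the counts were 7 and 6 differentially expressed members, 15 and 13 at the adjusted p, and 17 and 23 partner genes, lower and higher. The share of *Myh14* among the heavy chains, higher in the knockout by 0.92 percentage points, was higher by 1.37 with the merged exon length, which was added after the data were seen. The replicate numbers are shared by the genotypes but did not pair the libraries. Deviations of same-numbered libraries from their group means had correlations of 0.11, -0.16 and -0.18, and no library correlated best with its own number. The highest correlation, 0.21, was between *Pa1 F/F* replicate 2 and *Amh-pa1-/-* replicate 3, the library of each genotype that stands apart. With the replicate block 5 members were differentially expressed lower and 5 higher, 9 and 11 passed the adjusted p, and 10 and 16 partner genes did, lower and higher.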
